A study of Mus musculus with 10 samples.

Results

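Mecom and Prdm16 encode related zinc-finger transcription factors of the PRDM family, and the open chromatin at both genes was followed through 5 groups of mouse bone marrow progenitors. Peaks of all 10 libraries on chromosomes 1 to 19 and X were merged at an overlap of 1 bp or more, into 114366 regions whose median width was 752 bp. Members were the regions whose centre lay inside the span of either gene or within 50 kb of it in mm10, 75 regions in all. Mecom held 45 of them, 42 inside the gene and 3 upstream. Prdm16 held 30, 26 inside the gene and 4 beyond its 3′ end. The pair of loci was chosen by the number of their regions detected in LMPP and not in MDP in these same libraries, so gains and losses are described here without a test.

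ATAC-seq, a method in which a transposase inserts sequencing adapters into open DNA, was run on 5000 to 7200 sorted cells per library from C57BL/6 bone marrow. Each group had 2 libraries. LT-HSC, the long-term repopulating stem cells, were sorted as Lin- CD117+ Sca-1+ CD135- CD48- CD150+. LMPP, multipotent progenitors primed towards the lymphoid fate, were Lin- CD117+ Sca-1+ CD135+. MDP, which give rise to monocytes and dendritic cells, were Lin- Sca-1- CD117+ IL-7R- CD115+ and came from IRF8-deficient mice (IRF8KO MDP) and from wild-type mice (WT MDP). CDP, the dendritic-restricted progenitors, were CD115+ CD135+ and CD117int, without lineage markers, Sca-1 or IL-7R, and the LT-HSC, LMPP and CDP libraries were all wild type. One label of the LMPP libraries calls them short-term stem cells, but their titles and sorted markers say LMPP, and the titles were followed. The sources used here do not say how IRF8 was inactivated or which animals gave each library.

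MECOM is needed to maintain hematopoietic stem cells, and its forced expression drives myeloid leukemia. The gene uses a far upstream start, which gives the long form MDS1-EVI1 with a PR domain, and an internal start, which gives the short form EVI1 without that domain. PRDM16 shares this domain structure, supports stem cell maintenance in the bone marrow, and directs brown fat cell fate elsewhere in the body. IRF8 is a transcription factor of the interferon regulatory family that guides monocyte and dendritic cell development.

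The lists differed in length, which bears on every count. LT-HSC 1 held 31325 peaks and LT-HSC 2 held 52147, with 19.32% and 38.06% of tags in peaks. The IRF8KO MDP lists held 50728 and 54277 peaks, against 62130 and 64515 in WT MDP, and the other 4 lists held 63349 to 69598. Total tags ran from 4790046 to 10166833. Regions at 5 stem cell marker genes (Procr, Fgd5, Hlf, Mllt3, Slamf1) numbered 61, and 15 and 31 of them were detected in LT-HSC, 36 and 40 in LMPP, 9 and 11 in IRF8KO MDP, 21 and 23 in WT MDP, and 22 and 21 in CDP. Regions at 4 dendritic cell marker genes (Zbtb46, Siglech, Xcr1, Irf8) numbered 42, of which 10 to 22 were detected in the LT-HSC and LMPP libraries, 21 and 25 in IRF8KO MDP, and 29 to 36 in WT MDP and CDP. The T cell marker regions, 4 in all, were detected in no library except CDP, where 3 were found in each. Of 32 monocyte marker regions, CDP detected 27 and 24, against 15 in each WT MDP library. Of 24 neutrophil regions, CDP detected 18 in each library, against 16 and 17 in WT MDP. For 14 B cell regions the counts were 12 and 9, against 10 and 9. Of 27 lymphoid regions, LMPP detected 19 and 20, and each WT MDP library 20. Of 12 erythroid regions, CDP detected 8 and 7, WT MDP 7 and 8, IRF8KO MDP 7 in each library, LMPP 8 and 6, and LT-HSC 9 in each. Of 29 megakaryocyte regions, CDP detected 17 and 14, WT MDP 14 in each library, IRF8KO MDP 7 and 11, LMPP 16 and 13, and LT-HSC 12 and 19. In sorted populations, fewer cells with an open site and a less open site in each cell cannot be told apart.

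Mecom (gene ID 14013) lies on the minus strand of chromosome 3, from 29951296 to 30509759. Its long-form start is at 30509759, and its short-form start at 30013204, 496.6 kb further downstream. The RefSeq table used does not name the transcript of each start, and the long and short forms were assigned from the known structure of the gene. Prdm16 (gene ID 70673) lies on the minus strand of chromosome 4, from 154316122 to 154637360, with 1 start at 154636873. The 250 bases before each start are shown because the groups differed in whether a peak covered these starts. They are written 5′ to 3′ on the gene's strand, from RefSeq on GRCm38.p6, the assembly of mm10. Capitals mark a 15-base run that both Mecom windows hold.
Mecom long-form start, chr3:30509760-30510009: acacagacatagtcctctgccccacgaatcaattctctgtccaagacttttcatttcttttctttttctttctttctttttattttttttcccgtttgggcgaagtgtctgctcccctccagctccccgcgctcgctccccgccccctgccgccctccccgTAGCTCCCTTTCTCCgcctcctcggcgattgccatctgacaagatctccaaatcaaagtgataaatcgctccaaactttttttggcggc
Mecom short-form start, chr3:30013205-30013454: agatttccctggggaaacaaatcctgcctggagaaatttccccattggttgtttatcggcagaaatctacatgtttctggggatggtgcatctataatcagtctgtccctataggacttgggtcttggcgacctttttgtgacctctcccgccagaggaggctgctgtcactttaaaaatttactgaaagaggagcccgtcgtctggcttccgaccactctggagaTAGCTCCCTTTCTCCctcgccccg
Prdm16 start, chr4:154636874-154637123: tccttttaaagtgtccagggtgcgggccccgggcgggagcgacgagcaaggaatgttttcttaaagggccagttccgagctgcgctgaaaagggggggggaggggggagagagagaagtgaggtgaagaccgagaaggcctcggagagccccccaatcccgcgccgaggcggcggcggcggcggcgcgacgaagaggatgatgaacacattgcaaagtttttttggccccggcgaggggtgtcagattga

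The Prdm16 stretch was the richest in G and C, at 62.4%, against 50.8% before the Mecom long-form start, 50.4% before the short-form start and a median of 52.4% over all RefSeq starts. It held 22 CG pairs, and the Mecom stretches held 14 and 8, with a median of 6 over all starts. The 15-base run lay at positions -89 to -75 from the long-form start and -24 to -10 from the short-form start. It occurred in 2 of the 32619 RefSeq windows of 300 bases (250 before and 50 after a start), both of them Mecom windows.

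The paralogs also shared sequence just after their starts. A 24-base run, in capitals, was found in the windows of Mecom and Prdm16 alone among the 32619 windows, which is 0.00613% of them. The run reaches the last base of the Mecom window, so the shared stretch may be longer.
Mecom, bases 21 to 50 after the long-form start, chr3:30509710-30509739: tctaacGCGCATGTGCGAAGGTGTCCAAAC
Prdm16, bases 7 to 36 after the start, chr4:154636838-154636867: tgtGCGCATGTGCGAAGGTGTCCAAACtga
The short-form window of Mecom shared no run longer than 7 bases with the Prdm16 window on the same strand.

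Motifs of 7 kinds were searched on both strands of the 300-base windows. GATAA, the core recognised by GATA factors, occurred at position -30 of the Mecom long-form window, and in reverse at -198 of the short-form window. It was not in the Prdm16 window, and 25.4% of all windows held it. GAAANNGAA, an IRF-type motif, occurred once in reverse, at -191 of the Mecom long-form window, and in 8.53% of all windows. GACAAGATA (bound by the first zinc-finger domain of EVI1, 0.120% of windows), TGTGGT (RUNX, 16.6%), GAGGAAGT (PU.1, 3.22%), GGAANNGAA (ETS with IRF, 8.14%) and TTGCNNAA (C/EBP, 10.9%) were in none of the 3 windows. A GACAAGATA followed by A also holds GATAA, and no other pair of these motifs was merged. These are letter matches and not measured binding.

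The region over the Mecom long-form start (chromosome 3, 30503877 to 30510718) was detected in all 10 libraries, yet its extent and its place in the lists differed between groups. Peaks covered 1628 and 4665 bp of it in LT-HSC, 6568 and 6842 bp in LMPP, 3542 and 2486 bp in WT MDP, and 2857 and 1035 bp in CDP. In IRF8KO MDP they covered 2086 and 2588 bp, against 3542 and 2486 bp in WT MDP. The LMPP libraries had the widest peaks here, wider than those of any other library, while the IRF8KO and WT MDP ranges overlapped. The score column of the lists was constant, so the place of a peak in its list, as the percentage of rows down to it, was used as its rank, with low values at the top. The rank was 8.0 and 2.3% in LT-HSC, 0.4 and 0.3% in LMPP, 3.0 and 5.2% in WT MDP, and 16.0 and 34.1% in CDP, and it was 14.3 and 8.9% in IRF8KO MDP, against 3.0 and 5.2% in WT MDP. Both LMPP ranks were above those of all other libraries, and both IRF8KO MDP ranks were below both WT MDP ranks. With 2 libraries a group, the share of all regions that separate in this way is not given.

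A peak reached the start base itself in fewer libraries than the merged regions imply. At the Mecom long-form start, a peak covered the base in LT-HSC 2, in both LMPP libraries and in WT MDP 1. In the 6 libraries that lacked it, the nearest peak lay downstream, 58 bp away in LT-HSC 1, 340 and 252 bp in IRF8KO MDP, 216 bp in WT MDP 2, and 132 and 609 bp in CDP. At Prdm16, a peak covered the start base in all 4 LT-HSC and LMPP libraries and in none of the other 6. There the nearest peak again lay downstream, at 687 and 625 bp in IRF8KO MDP, 43 and 165 bp in WT MDP, and 738 and 869 bp in CDP.

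The merged region at Prdm16 (chromosome 4, 154634877 to 154638785) was detected in all 10 libraries too, and overlaps the noncoding genes 5930403L14Rik and Prdm16os. Peaks covered 1379 and 2800 bp of it in LT-HSC, 3483 and 2991 bp in LMPP, 1328 and 1146 bp in WT MDP, and 501 bp in each CDP library. In IRF8KO MDP they covered 646 and 631 bp, against 1328 and 1146 bp in WT MDP. Its rank was 31.9 and 14.6% in LT-HSC, 10.2 and 13.8% in LMPP, 37.8 and 44.2% in WT MDP, and 79.5 and 97.5% in CDP, and it was 61.9 and 72.1% in IRF8KO MDP, against 37.8 and 44.2% in WT MDP. The groups from LMPP onward did not overlap in rank at this region, in the order LMPP, WT MDP, IRF8KO MDP and CDP. Each group has 2 libraries, and the share of all regions that separate in this way is not given.

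The short-form start of Mecom (region 30010703 to 30013746) was the one start at which the regions themselves came and went. It was detected in both LT-HSC, both LMPP and both WT MDP libraries, in CDP 2, and in neither IRF8KO MDP library. Covered length was 501 and 2624 bp in LT-HSC, 2900 and 2092 bp in LMPP, 1353 and 634 bp in WT MDP, and 0 and 501 bp in CDP. Every peak in this region covered the start base, so the base had a peak in 7 libraries. The rank was 87.2 and 27.2% in LT-HSC, 9.7 and 19.8% in LMPP, 38.7 and 63.6% in WT MDP, and 97.2% in CDP 2, close to the end of that list. In IRF8KO MDP the nearest peaks lay 2036 and 1975 bp upstream.

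**Figure D1:**
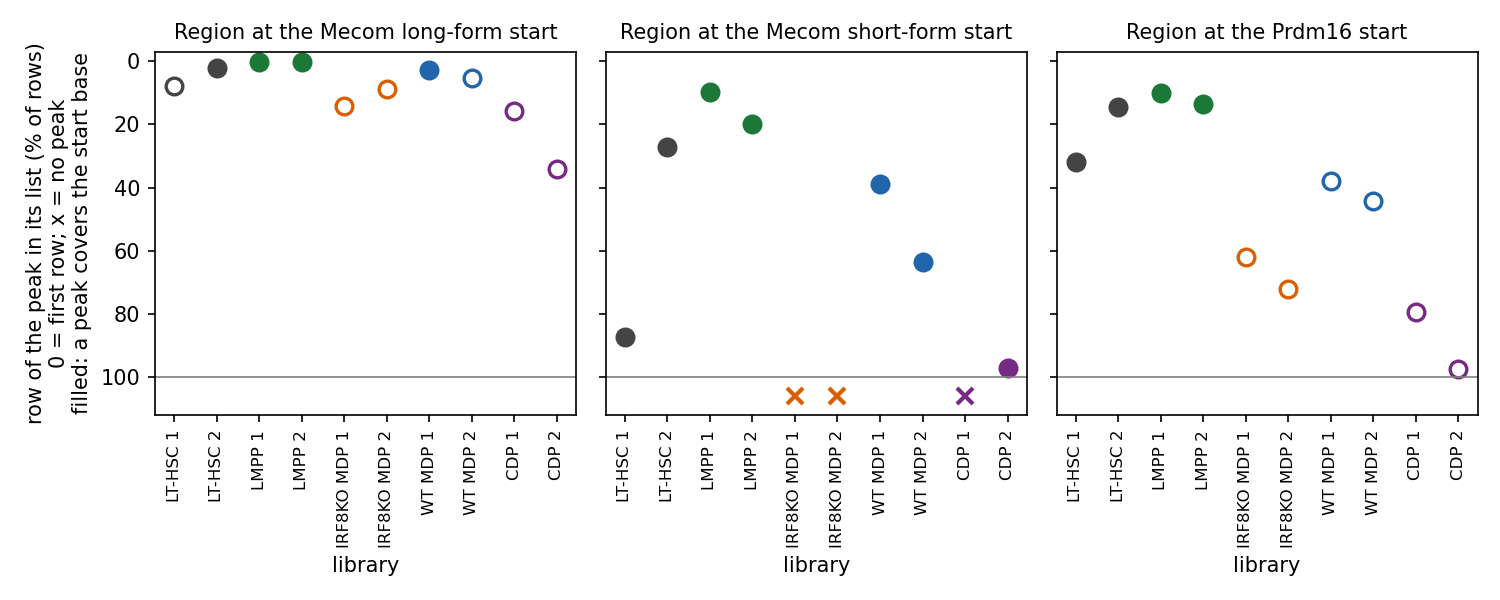
Rank of the region at each start in the 10 libraries; the vertical axis is the row of the peak as a percentage of the rows of its list, with 0 at the top, and crosses mark libraries with no peak. Filled circles are libraries in which a peak covers the start base, 4 at the Mecom long-form start, 7 at the short-form start and 4 at Prdm16.

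A second Mecom region was detected in all 10 libraries. It lies 5.2 kb upstream of the long-form start (30513937 to 30516011) and ranked at 39.3 and 12.3% in LT-HSC, 10.2 and 8.4% in LMPP, 49.7 and 61.2% in WT MDP, and 47.7 and 97.2% in CDP. In IRF8KO MDP it ranked at 64.3 and 48.4%, within the spread of WT MDP and CDP.

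Over the whole Mecom locus, LMPP had the most detected regions. Of 45 regions, 9 and 29 were detected in LT-HSC, 34 and 36 in LMPP, 12 and 11 in WT MDP, and 7 and 6 in CDP. IRF8KO MDP had 6 and 6, against 12 and 11 in WT MDP. As shares, these were 20 and 64.4% in LT-HSC, 75.6 and 80.0% in LMPP, 13.3% in each IRF8KO MDP library, 26.7 and 24.4% in WT MDP, and 15.6 and 13.3% in CDP. Over all 114366 regions the shares ran from 26.4% in LT-HSC 1 to 59.7% in CDP 1, and were 42.5 and 45.8% in IRF8KO MDP, against 52.4 and 54.2% in WT MDP. Mecom stood above the share of all regions in LT-HSC 2 and LMPP, and below it in LT-HSC 1 and in every MDP and CDP library.

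Prdm16 had 5 and 17 of its 30 regions detected in LT-HSC, 21 and 20 in LMPP, 9 and 7 in WT MDP, and 12 and 9 in CDP. IRF8KO MDP had 2 and 2, against 9 and 7 in WT MDP. The shares were 16.7 and 56.7% in LT-HSC, 70.0 and 66.7% in LMPP, 6.67% in each IRF8KO MDP library, 30.0 and 23.3% in WT MDP, and 40 and 30.0% in CDP. Here the CDP libraries were level with or above WT MDP, whereas at Mecom both were below it.

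**Figure D2:**
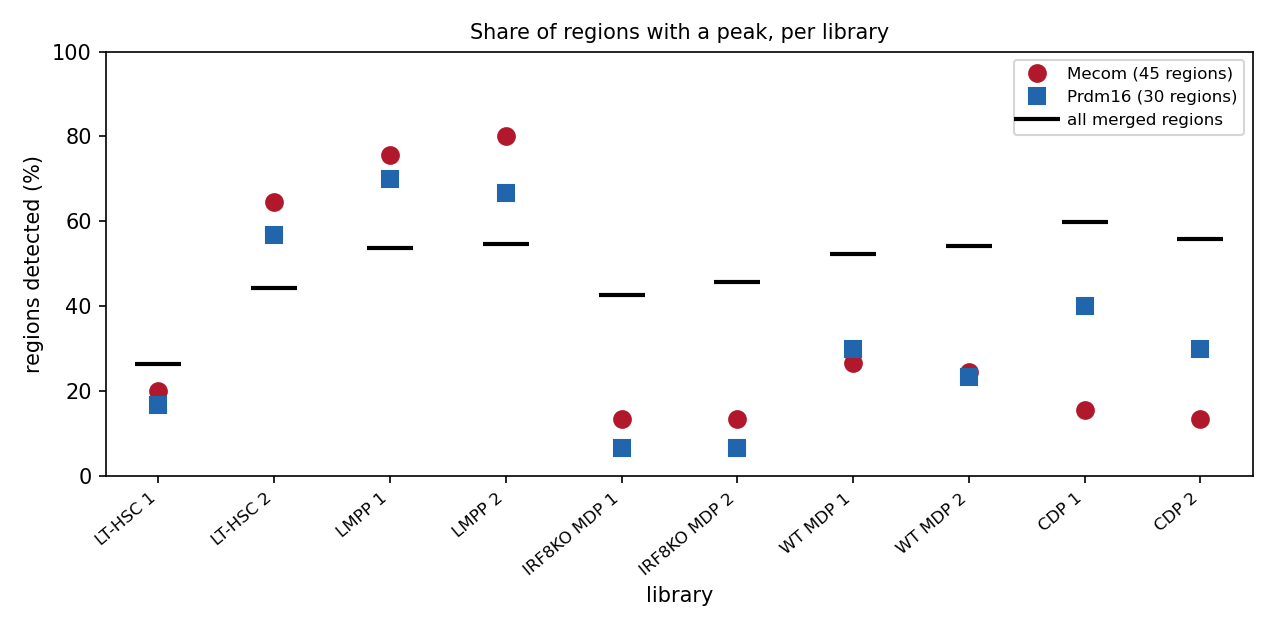
Share of the 45 Mecom and 30 Prdm16 regions with a peak in each library, in percent, with black bars for all 114366 merged regions. Mecom reaches 75.6 and 80.0% and Prdm16 70.0 and 66.7% in LMPP, and both lie under the black bars in every MDP and CDP library.

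The summed length under peaks followed the counts. At Mecom it was 6.31 and 26.7 kb in LT-HSC, 33.4 and 32.5 kb in LMPP, 4.85 and 5.93 kb in IRF8KO MDP, 12.6 and 9.0 kb in WT MDP, and 8.70 and 5.31 kb in CDP. At Prdm16 it was 4.14 and 15.1 kb in LT-HSC, 20.2 and 18.5 kb in LMPP, 1.15 and 1.13 kb in IRF8KO MDP, 6.59 and 4.28 kb in WT MDP, and 9.0 and 7.0 kb in CDP. The Prdm16 length in IRF8KO MDP was below that of every other library.

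**Figure D3:**
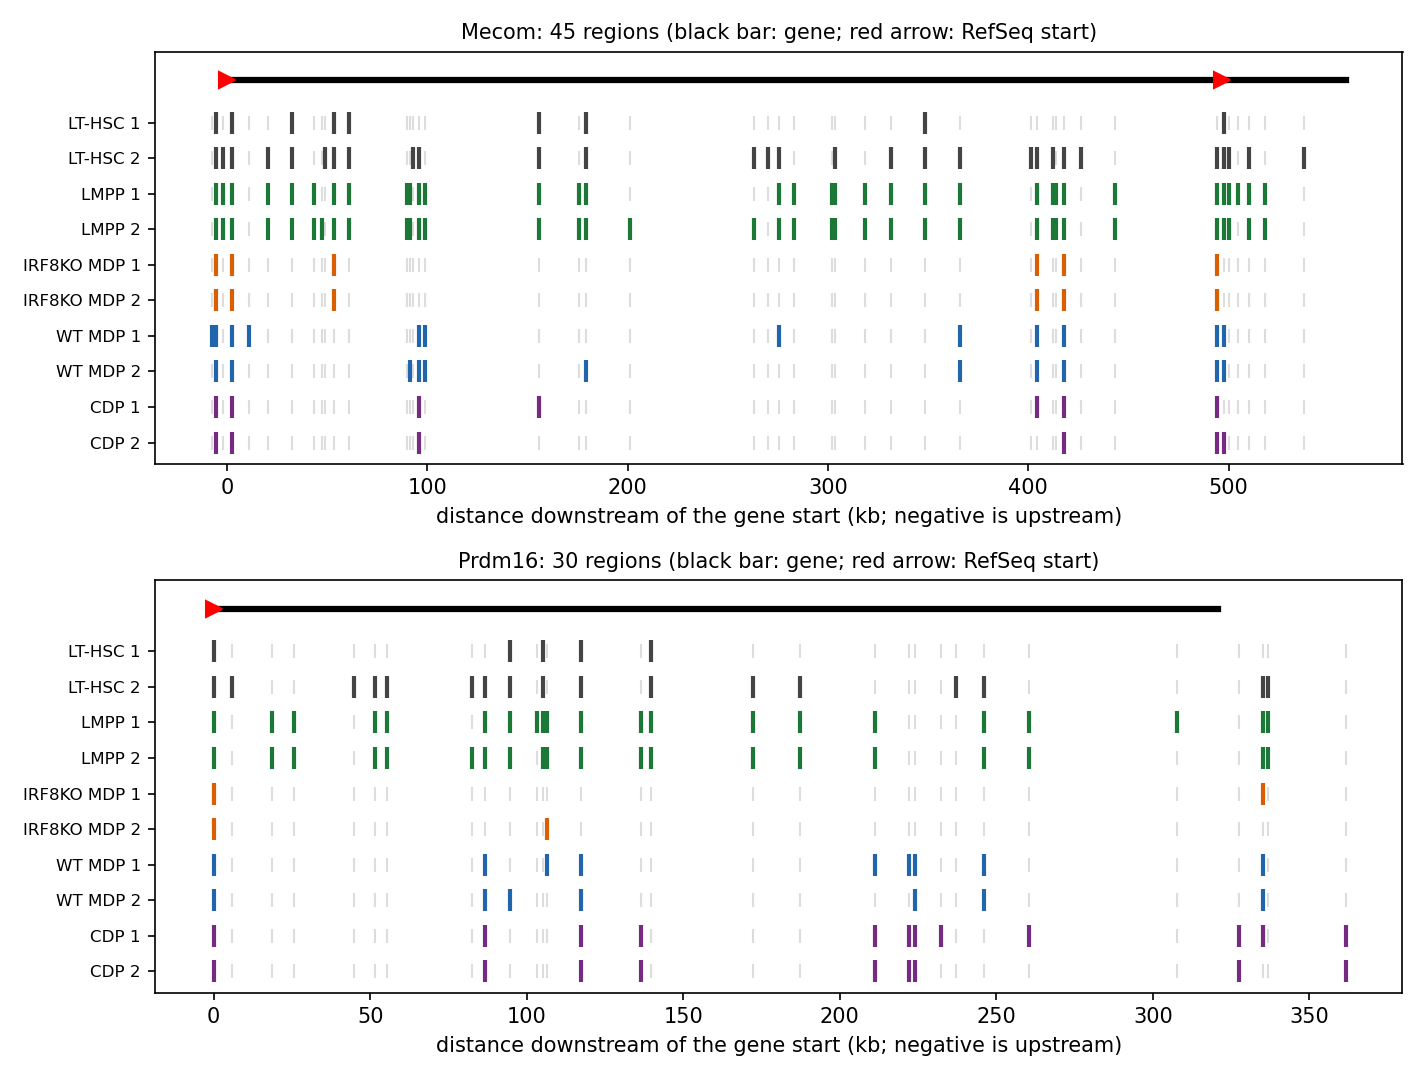
Every region of Mecom (upper panel) and Prdm16 (lower panel) by distance downstream of the gene start in kb, with a coloured bar where the library in that row has a peak and a grey bar where it does not. The LMPP rows are mostly filled along Mecom and along the 5′ and middle parts of Prdm16, with each gene divided into 3 equal parts. Of the 7 regions in the 3′ part of Prdm16, both LMPP libraries detect 2. The middle of Mecom is nearly empty in the MDP and CDP rows.

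For comparisons, a group was said to detect a region when both of its libraries had a peak there and to lack it when neither had. A region was gained when the later or mutant group detected it and the other lacked it, and lost in the opposite case. LMPP detected 33 Mecom regions, of which 11 (33.3%) were gained over LT-HSC, and 19 Prdm16 regions, of which 6 (31.6%) were gained. Over all regions detected by LMPP, 27.0% were gained. All 9 Mecom and all 5 Prdm16 regions that LT-HSC detected were also detected by LMPP, so 0 were lost at either gene, while 6.33% of all LT-HSC regions were lost. The shares gained were near that of all regions. Without the sparse LT-HSC 1 list the gained counts were again 11 at Mecom and 6 at Prdm16, but 6 and 3 regions were lost. Without LT-HSC 2, which leaves the sparse list alone, 24 were gained and 0 lost at Mecom, and 14 gained and 0 lost at Prdm16. With every list kept to its first 31325 rows, the length of the shortest, gains minus losses were 1 at Mecom and 2 at Prdm16. No share over all regions is given at equal list length or without a library, so these counts have no background.

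Inside Mecom, 3 sites were present in both LT-HSC and both LMPP libraries and in none of the other 6. One lies 32.6 kb downstream of the long-form start (30476726 to 30477651) and ranked at 55.4 and 33.6% in LT-HSC, and 24.9 and 28.1% in LMPP. The others lie 348.6 kb (30160508 to 30161847) and 60.9 kb (30448530 to 30449133) downstream. Prdm16 had 2 regions with this pattern, at 139.6 kb (154496767 to 154497794), which ranked at 42.7 and 32.9% in LT-HSC and 25.5 and 36.8% in LMPP, and at 105.3 kb (154531268 to 154531971). In each of the 2 regions whose ranks are given, LT-HSC 1 had the highest rank percentage of the libraries with a peak. That list is the shortest, at 31325 rows, so the same row gives a higher percentage there than in the other lists.

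LMPP-restricted regions, detected in both LMPP libraries and in no other, lay at 43.3, 175.6, 283.0 and 518.0 kb downstream of the Mecom start among those with the best ranks. The first of these by rank, at 175.6 kb (30333655 to 30334682), stood at 51.2 and 46.0% in LMPP. At Prdm16 the corresponding regions inside the gene lay at 18.7 kb (154617755 to 154618532), ranked at 62.5 and 49%, and at 25.5 kb (154611086 to 154611628). These LMPP-restricted sites ranked in the middle or lower part of the lists.

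From LMPP to WT MDP, the lost regions made up most of what LMPP had. Of the 33 Mecom regions detected by LMPP, 21 (63.6%) were lost, and 0 of the 9 detected by WT MDP were gained. Of the 19 Prdm16 regions detected by LMPP, 11 (57.9%) were lost, and 1 of the 6 detected by WT MDP (16.7%) was gained. Over all regions, 22.5% of those detected by LMPP were lost and 22.1% of those detected by WT MDP were gained. Since this contrast chose the loci, the difference from all regions is a description. The list lengths of these groups were close, at 62130 and 64515 peaks in WT MDP and 63349 and 64181 in LMPP. Counted away from starts (over 1 kb from any RefSeq start), Mecom lost 21 of 31 (67.7%) and Prdm16 10 of 16 (62.5%), where all such regions lost 27.3%.

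No gene of 13621 with at least 8 regions had more lost regions than Mecom, and 13 had more than Prdm16. The loci were chosen by this kind of count, so a high place by it was set in advance. By share of all of a gene's regions, Mecom lost 46.7% and Prdm16 36.7%, and 53 and 192 genes had a larger share. The median gene lost 4.76%. With lists cut to 31325 rows in the same way, LMPP detected 12 Mecom and 8 Prdm16 regions, and the gains minus losses of WT MDP over LMPP were -6 at Mecom and -5 at Prdm16. No share over all regions is given at this length, so these counts cannot be set against a background.

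Of the 21 lost Mecom regions, both LT-HSC libraries held 5 (23.8%), 1 library held 7 (33.3%) and neither held 9 (42.9%). Of the 11 lost Prdm16 regions, both LT-HSC libraries held 2, 1 library held 5 and neither held 4. Over the 12125 regions lost in all, the shares were 23.9, 28.1 and 48.0%. Most did not come back: no CDP library had a peak at 20 of the 21 Mecom regions and at 9 of the 11 Prdm16 regions, that is 95.2 and 81.8%, with 84.1% over all lost regions. No IRF8KO MDP library had a peak at 20 of the 21 Mecom regions and at all 11 Prdm16 regions, with 88.2% over all lost regions. These shares were near those of all lost regions.

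Loss fell along the whole length of both genes. Dividing Mecom into 3 equal parts from its 5′ end, 8 of 13, 6 of 8 and 6 of 10 regions detected by LMPP were lost. The middle part of Mecom was left with 1 region in WT MDP, 0 in CDP and 0 in IRF8KO MDP. The same parts of Prdm16 lost 5 of 9, 4 of 6 and 1 of 2 regions. The remaining lost Mecom region lies 2.1 kb upstream of the long-form start, and the remaining lost Prdm16 region lies beyond its 3′ end.

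Regions that were kept ranked higher in LMPP than those that were lost. The mean LMPP rank of the 9 Mecom regions detected by both groups had a median of 31.4% (0.317 to 56.4%), against 66.8% (25.1 to 93.9%) for the 21 lost. At Prdm16 the medians were 28.2% for 5 kept regions and 55.8% for 11 lost. The same ordering held over all regions, with medians of 33.1% for kept and 65.2% for lost regions. Kept regions were also wider in LMPP, with median covered lengths of 943 bp at Mecom and 1320.5 bp at Prdm16, against 568 bp and 635.5 bp for lost regions. Some lost sites were nonetheless strong in LMPP, such as the Mecom region at 303.4 kb (30206052 to 30206693), which ranked at 22.1 and 28.1%. Over the member regions found in both LMPP libraries, the ranks of the libraries had a Spearman correlation of 0.829 across 52 regions. The groups that detected fewer regions had values of 0.754 to 0.877 over 7 to 15 regions. Stretches of each list stand in genome order, so part of these correlations can come from position alone, which was not tested.

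**Figure D4:**
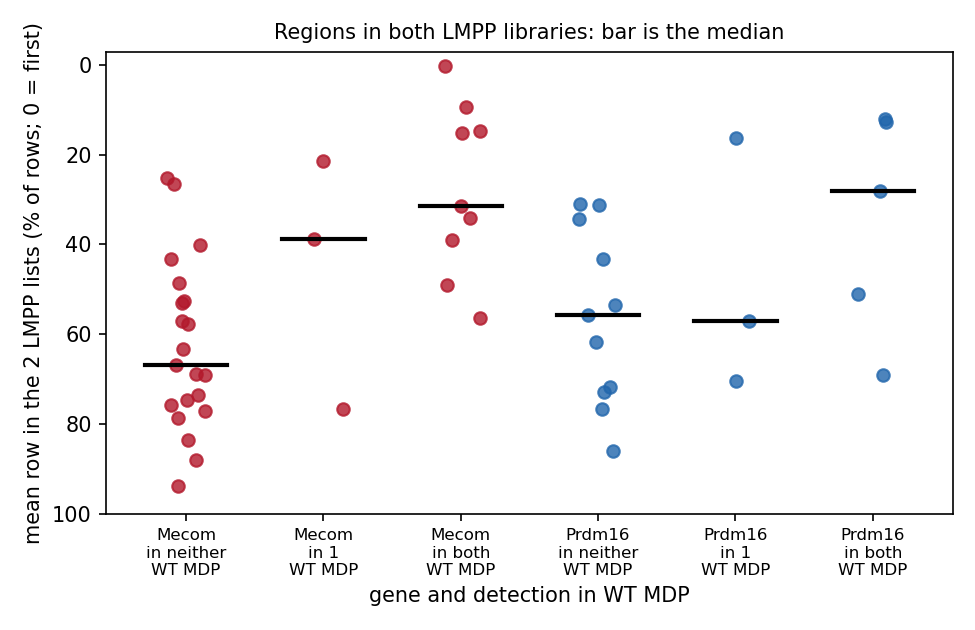
Mean rank in the LMPP lists (vertical axis, percent of rows, 0 at the top) of every region detected in both LMPP libraries, by gene and by how many WT MDP libraries detect it; bars are medians. Regions in both WT MDP libraries have medians of 31.4% at Mecom and 28.2% at Prdm16, and those in neither have 66.8 and 55.8%, with overlapping ranges.

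A few Mecom sites were held by 1 WT MDP library. The strongest, 179.4 kb downstream (30329739 to 30331007), ranked at 65.5 and 35.4% in LT-HSC, 21.2 and 21.6% in LMPP, and 53.0% in WT MDP 2. At Prdm16 the region at 94.7 kb (154541234 to 154543103) was the best ranked site of LT-HSC inside the gene away from the start. It stood at 24.6 and 13.9% in LT-HSC, 12.4 and 20.3% in LMPP, and 86.3% in WT MDP 2, and was in no CDP or IRF8KO MDP library.

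CDP held fewer Mecom regions than WT MDP, and differed from it in both directions at Prdm16. At Mecom, 2 of the 9 regions of WT MDP (22.2%) were lost and 0 of the 5 of CDP were gained. The lost sites were those at 98.8 kb (30410672 to 30411240) and at 365.8 kb (30143411 to 30144537). At Prdm16, 1 of 6 (16.7%) was lost, at 246.0 kb (154390249 to 154391439), and 3 of 9 (33.3%) were gained. Over all regions, 7.84% were lost and 12.6% gained. With so few regions, each count turns on 1 or 2 sites.

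Prdm16 carried sites detected in both CDP libraries that the LT-HSC lists lacked. A region 224.0 kb downstream of the start (154412048 to 154413662) had a peak in all 4 WT MDP and CDP libraries, and the other 6 lists lacked it. It was the 1 region that WT MDP gained over LMPP, and covered lengths were 1513 and 1347 bp in CDP, against 891 and 633 bp in WT MDP. Its rank was 19.5 and 20.4% in CDP, above 34.3 and 37.7% in WT MDP. Its neighbour at 221.9 kb (154414494 to 154415358) was found in both CDP libraries, at 48.7 and 54.6%, and in WT MDP 1, at 80.8%. A region at 211.3 kb (154425094 to 154425988) ranked at 70.8 and 43.4% in LMPP, 97.1% in WT MDP 1, and 38.7 and 45.9% in CDP.

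The 3 regions gained by CDP at Prdm16 were those at 136.5 kb (154500002 to 154500759), which LMPP also detected, and 2 beyond the 3′ end of the gene (154309043 to 154309680 and 154274999 to 154275551). The first of these 2 was singled out after its values were seen. The second lies within the neighbouring gene Megf6. Both were found in CDP alone, with ranks of 68.3 and 85.1%, and of 66.5 and 88.9%.

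At Mecom, a site that LMPP, WT MDP and CDP all detected lies 95.8 kb downstream of the long-form start (30413045 to 30414882). It ranked at 78.8% in LT-HSC 2, 32.8 and 30.0% in LMPP, 16.2 and 26.0% in WT MDP, and 16.1 and 19.2% in CDP, and it was in neither IRF8KO MDP library. It thus stood higher in the WT MDP and CDP lists than in the LMPP lists, unlike the starts. Its covered length was 1127 and 759 bp in LMPP, 1432 and 628 bp in WT MDP, and 1838 and 1809 bp in CDP, so LMPP and WT MDP overlapped.

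In IRF8-deficient MDP, 4 of the 9 Mecom regions of WT MDP (44.4%) and 4 of the 6 Prdm16 regions (66.7%) were lost. Over all regions 19.4% were lost. The IRF8KO lists were shorter, and they also held fewer stem cell marker regions, 9 and 11 against 21 and 23 in WT MDP. The part of either in these losses was not tested, apart from the counts at equal list length. Away from starts, Mecom lost 3 of 7 (42.9%) and Prdm16 3 of 4 (75.0%), and all such regions lost 23.5%. IRF8KO MDP gained 1 of its 6 Mecom regions (16.7%) and 0 of its 1 Prdm16 region, with 7.08% over all regions. At equal list length the gains minus losses were -1 at Mecom and -2 at Prdm16, with no share over all regions given at that length.

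The Mecom regions lost in IRF8KO MDP were the short-form start and the sites at 95.8, 98.8 and 365.8 kb. Of these, the short-form start and the sites at 98.8 and 365.8 kb were also missing from at least 1 CDP library, while the site at 95.8 kb was among the best ranked of both CDP lists at this gene. The region that IRF8KO MDP gained lies 53.5 kb downstream (30455773 to 30456650). It was detected in both LT-HSC libraries, at 80.5 and 34.5%, in both LMPP libraries, at 52.7 and 33.9%, in both IRF8KO MDP libraries, at 90.6 and 90.3%, and in no WT MDP or CDP library. Its IRF8KO ranks were near the end of the lists.

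The 5 Mecom regions that both MDP groups detected were the long-form start region, the one 5.2 kb upstream of it, and those at 404.5, 417.6 and 494.1 kb. The site at 417.6 kb (30091560 to 30092765) ranked at 78.8% in LT-HSC 2, 17.0 and 13.3% in LMPP, 19.1 and 15.1% in WT MDP, and 39.8 and 34.1% in CDP, and at 26.2 and 28.6% in IRF8KO MDP, against 19.1 and 15.1% in WT MDP. It had no peak in LT-HSC 1, and from LMPP onward it ranked between 13.3 and 39.8%. The last 3 sites were singled out after their values were seen.

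The Prdm16 regions lost in IRF8KO MDP were those at 86.7, 117.4, 224.0 and 246.0 kb. The site at 117.4 kb (154518586 to 154520324) was detected in every library except the IRF8KO MDP ones. It ranked at 95.7 and 56.5% in LT-HSC, 14.0 and 11.5% in LMPP, 35.1 and 51.5% in WT MDP, and 21.8 and 21.7% in CDP. The site at 86.7 kb (154549466 to 154550827), within the overlapping gene Gm13133, ranked at 56.5% in LT-HSC 2, 25.5 and 30.8% in LMPP, 80.8 and 86.3% in WT MDP, and 76.8 and 57.0% in CDP. The start region was left as the only Prdm16 region that both IRF8KO MDP libraries detected. Each of these libraries had 1 further Prdm16 region, a different one in each.

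The IRF8KO MDP and CDP comparisons share the WT MDP libraries, so their counts are not independent. Gains minus losses were -3 at Mecom and -4 at Prdm16 in IRF8KO MDP over WT MDP, and -2 and 2 in CDP over WT MDP.

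The 50 kb limit fell in wide gaps. Upstream of Mecom, the outermost member lay 7.4 kb from the gene (30516909 to 30517409, WT MDP 1 only), and the next region lay 82.8 kb away (30592203 to 30592915, all 10 libraries). Beyond the 3′ end of Mecom there was no member, and the nearest region lay 117.7 kb away (29833381 to 29833905, 1 WT MDP and both CDP libraries). Upstream of Prdm16 the nearest region lay 62.0 kb away (154698968 to 154699832) and was detected in both LT-HSC and both LMPP libraries alone. Beyond its 3′ end the outermost member lay 40.8 kb away (154274999 to 154275551, both CDP libraries), and the next region 67.5 kb away (154248281 to 154248984, both LMPP libraries and 1 WT MDP library).

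Among genes with at least 8 regions, likeness was measured by the Pearson correlation of the share of regions detected over the 10 libraries, as a description. Nearest to Mecom were Pknox2 (0.989, 18 regions), a homeobox gene of the TALE class, Klf12 (0.984, 23 regions), a Krüppel-like repressor, and Trpc6 (0.983, 17 regions), a cation channel. The median over 13619 genes was -0.13. Nearest to Prdm16 were Mcm9 (0.978, 18 regions), a DNA helicase of the MCM family, Dydc2 (0.978, 13 regions) and Ccni (0.974, 11 regions), a cyclin, with a median of 0.10 over 13618 genes. Mecom and Prdm16 correlated with each other at 0.903. Both were chosen by their regions detected in LMPP and not in MDP in these lists, so a likeness between them was partly set by that choice. All of these points share the same 10 lists and their lengths. Trpc6, for instance, had peaks at 64.7 and 76.5% of its regions in LMPP, 5.88 and 0% in IRF8KO MDP, 17.6% in each WT MDP library, and 0% in each CDP library.

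**Figure D5:**
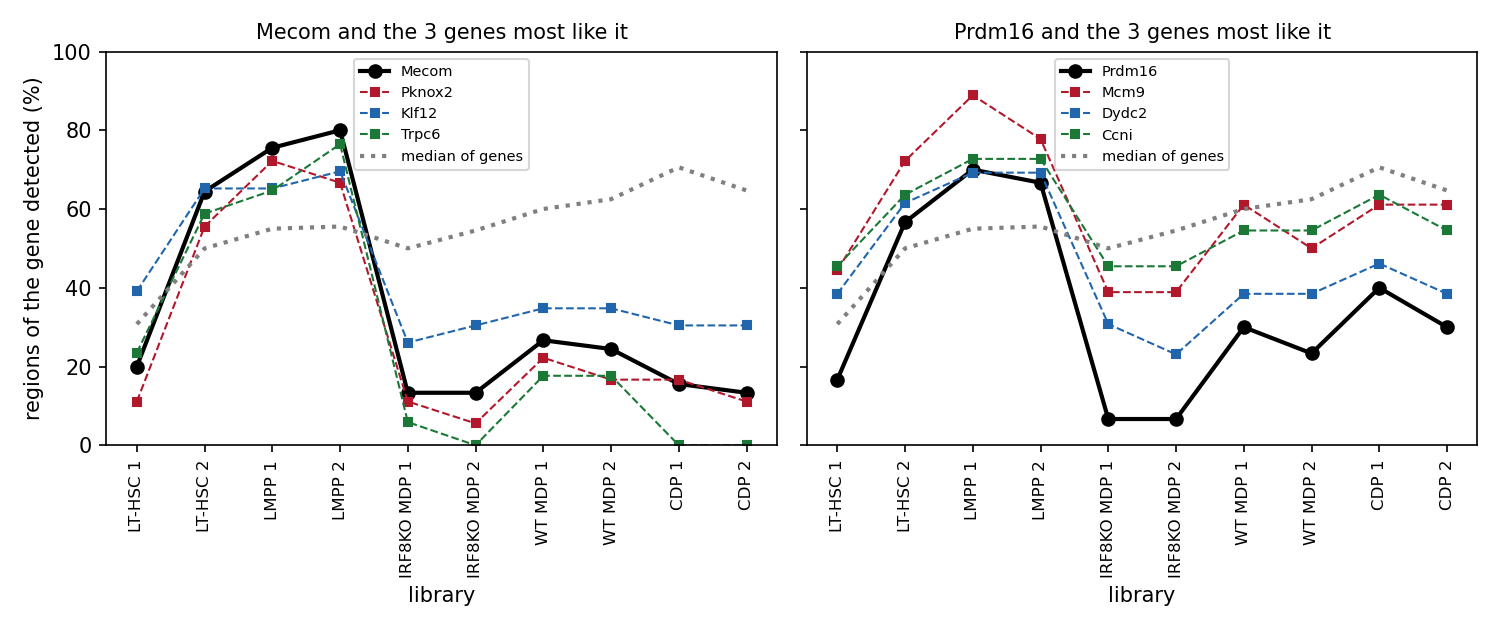
Share of regions detected in each library (percent) for Mecom, Prdm16 and the 3 genes most like each, with the median of genes as a dotted line. Mecom stands at 26.7% or less in the MDP and CDP libraries, where the median gene has 50 to 70.6%.

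The PRDM family encodes zinc-finger proteins with a PR domain related to histone methyltransferases. Over its 14 other genes measured, WT MDP lost 17 of 92 regions (18.5%) detected by LMPP, and all regions lost 22.5%. By gains minus losses, 7 of the 14 genes were at net loss, 4 at net gain and 3 level, with a median of -0.5. Of all 19223 genes with regions, 5212 were at net loss and 8192 at net gain, with a median of 0, and the same counts stand as background for the 3 lists that follow. Prdm8 had 4 regions lost and 1 gained of 12, and Prdm1, which encodes the repressor BLIMP1, had 2 lost and 1 gained of 20. Prdm15 went the other way, with 3 gained and 0 lost of 13.

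Genes of MECOM's partners and targets lost 16 of 114 regions (14.0%), with 4 of 14 genes at net loss, 6 at net gain and a median of 0. Runx1, a core hematopoietic factor that binds EVI1, had 1 lost and 10 gained of 42, and Spi1, which encodes PU.1, had 0 lost and 4 gained of 21. Genes of PRDM16's partners and targets lost 11 of 70 (15.7%), with 4 of 7 genes at net loss, 3 at net gain and a median of -1. Ppargc1a, a coactivator of the brown fat program, had 7 lost and 2 gained of 59, and Pparg, the nuclear receptor of the fat cell program, had 8 gained and 0 lost of 23. The corepressor genes Ctbp1 and Ctbp2, which both factors bind, each had 1 region lost and 0 gained.

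Stem cell factor genes lost 41 of 165 regions (24.8%), with 9 of 18 genes at net loss, 5 at net gain and a median of -0.5. Meis1, a homeobox factor of stem cells, had 7 lost and 0 gained of 31, and Hlf, a bZIP factor of stem cells, had 6 lost and 0 gained of 21. Erg, an ETS factor that stem cells need, had 0 lost and 6 gained of 35. In IRF8KO MDP over WT MDP the shares lost were 20.8% for the PRDM family (16 of 77), 18.7% for MECOM partners and targets (25 of 134), 19.4% for PRDM16 partners and targets (14 of 72) and 20.5% for stem cell factors (30 of 146), all near the 19.4% of all regions.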

How the data were processed

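The 10 peak lists, 1 a library, are on mm10 (GRCm38), and the submitters' processing notes name Bowtie 1.1.2 and HOMER 4.9. Per the file headers, the authors called each library alone and with no control library, from 500 bp peaks at least 1000 bp apart, stitched into regions of variable length. The headers set the false discovery rate to 0.001, the minimum enrichment over the local background to 4-fold and the tags counted per bp to 1. The deposited score column holds 1 in every row of the authors' files. No source used here says whether reads were shifted for the transposase offset. The replicate numbers name libraries; the design text calls the wild-type pairs biological duplicates.

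Rank was the row of a peak in its list, assumed to follow strength. The rows of each list fell into 405 to 925 runs in genome order, the longest with 2.41 to 4.61% of the list, so peaks of 1 run are not ordered among themselves. Runs that began within the first 10% of rows held at most 0.195% of a list. Peaks were merged and counted with Python 3.11.15, pandas 2.3.3, numpy 2.4.6 and scipy 1.17.1, and counting was tested on simulated peaks. Starts, spans and sequences came from RefSeq tables, which gave no genome sequence for the other regions. No count model applied and no test was run. The members and lists were chosen with earlier results of these data known. Regions were named if detected in all libraries, over a start, beside the 50 kb limit, or inside a gene with both libraries of 1 group and neither of another, up to 4 per pattern by mean rank.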

Additional observations from a re-analysis of the deposited data

How the results depend on the processing

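Gains minus losses kept their direction or came to 0 under all alternatives tried, and none was reversed. With every list kept to the first 31325 rows, they were 1 at Mecom and 2 at Prdm16 for LMPP over LT-HSC (11 and 6 with whole lists), -6 and -5 for WT MDP over LMPP (-21 and -10), 0 and 0 for CDP over WT MDP (-2 and 2), and -1 and -2 for IRF8KO MDP over WT MDP (-3 and -4). Counting a region as detected by 1 library of a group gave -6 at Mecom for CDP over WT MDP, and -8 at Mecom and -7 at Prdm16 for IRF8KO MDP over WT MDP. Without the flanks, Prdm16 came to 0 for CDP over WT MDP. Leaving out 1 library gave 5 (without LT-HSC 1) to 24 (without LT-HSC 2) at Mecom and 3 to 14 at Prdm16 for LMPP over LT-HSC, -24 to -21 at Mecom for WT MDP over LMPP, -5 to -2 at Mecom and 1 to 4 at Prdm16 for CDP over WT MDP, and -6 to -3 at Mecom for IRF8KO MDP over WT MDP. The cause of these changes was not tested, and no share over all regions is given under the alternatives. Under the alternatives, 57 such values stayed within 1.5 times the main count and 23 did not.

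No paired analysis was possible because the counts come from no test and the replicate numbers only name libraries. Detection depends on depth and list length. A region with no peak did not pass the limits of its header, which include 10 to 13 tags and 4-fold local enrichment. This does not show closed chromatin. With 2 libraries a group, each group gives 1 replicate gap.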
